A study of Nicotiana tabacum with 36 samples.

Results

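Whole shoot was compared with root in the tobacco (*Nicotiana tabacum*) cultivar K326, which is grown for flue-cured leaf. The libraries were chosen by their tissue label alone, which gave 12 shoot and 12 root libraries, 24 of the 36 in the series. Both tissues came from plants of K326 aged 56 days, kept in long days (18 h light, 6 h dark) and given no other treatment. They were harvested at 4 time-points, ZT0, ZT6, ZT12 and ZT18 (hours after dawn), with 3 biological replicates of each tissue at each time-point. The other 12 libraries, from the shoot apex, shared the fit and are not compared here. Expression was given for 69500 predicted gene models of assembly Nitab4.5 as an expected count, the number of reads RSEM assigned to a model, and as TPM, the usual measure of transcript abundance, in which the count is taken per base of the model and each library then adds up to 1 common total.

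The shoot carries the leaves and stem, where photosynthesis, light perception and the export of sugars take place. The root takes up water and mineral nutrients, and in tobacco it is the site of nicotine synthesis, from which nicotine moves to the leaf through the xylem. Tobacco is an allotetraploid that holds gene copies from *N. sylvestris* and *N. tomentosiformis* ancestors, so many gene models have a near-identical partner. Where a read matches more than 1 model, RSEM divides it among them, and the level of a single model within such a pair or family is uncertain for that reason.

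The deposited files pair the gene models with no symbol or function, and 0 of the 69500 identifiers had an entry in RefSeq's gene list for tobacco. Gene models are therefore described by identifier, length and level, and no tissue marker could be looked up. As a check on the labels, the correlation of log TPM between libraries was used instead, and 12 of 12 shoot libraries and 12 of 12 root libraries had a higher mean correlation with the other libraries of their own tissue than with those of the other tissue. In bulk tissue, fewer cells of a type and less RNA per cell cannot be told apart.

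The total expected count was between 4125090 and 19975710 in shoot libraries (median 11798977) and between 4787850 and 20000601 in root libraries (median 12764746). Shoot ZT6 replicate 1 stood apart from the rest, with 20769 gene models at a TPM of at least 1 and 88.7% of its TPM in its 100 leading gene models. Of those 100, 83 were also among the 100 leading gene models of shoot ZT18 replicate 2. These 83 models, with a median length of 405 bases, held 87.1% of the TPM of shoot ZT6 replicate 1 and 53.9% of that of shoot ZT18 replicate 2, against 1.83% to 5.70% in the other 10 shoot libraries and 0.397% to 17.4% in root libraries, of which root ZT6 replicate 1 was the highest. They were chosen as leading in both shoot libraries, so a large share there is partly set by the choice. In the study's quality table these shoot libraries and root ZT6 replicate 1 are among those of lowest mapped share and have the highest duplication. Results were therefore also computed without shoot ZT6 replicate 1, and, as an alternative added after the values had been seen, without both shoot libraries.

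Shoot and root differed in most of the gene models that could be tested. Of 44594 gene models with enough reads, 25225 passed the threshold of an adjusted p of 0.05 in the contrast averaged over the 4 time-points, 56.6% of those tested. The level was higher in shoot than in root for 11426 (25.6%) and lower for 13799 (30.9%), and the median log2 fold change of all 44594 was -0.07. The counts were scaled by TMM, which takes most gene models to be unchanged, so a small median is partly set by that scaling. Without shoot ZT6 replicate 1, 25159 passed, 11717 of them higher and 13442 lower in shoot, and 24372 of the 25225 were among them. In none of the 37 alternative settings was any of the 25225 called in the opposite direction.

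The balance between higher and lower was less firm than the calls themselves. Of the called gene models 45.3% were higher in shoot, against 51.5% without shoot ZT6 replicate 1 and shoot ZT18 replicate 2. With limma on log2(TPM + 1) in place of counts the share was 29.6%, and in that scaling the median log2 fold change of all gene models was -0.36. Leaving out either root ZT12 replicate 1 or root ZT18 replicate 2 moved the share to 50.1%, so which direction held more gene models depended on single libraries.

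Gene models that were higher in shoot had the larger median change. The median size of the log2 fold change was 1.55 among those higher in shoot, with quartiles of 0.82 and 3.22, and 1.19 among those lower, with quartiles of 0.60 and 2.48. Differences under 1 on the log2 scale made up 32.8% of the gene models higher in shoot (3753) and 44.3% of those lower (6107). At the other end, 2134 higher and 2084 lower gene models differed by at least 4 on the log2 scale. The median standard error was 0.23 for the higher and 0.22 for the lower gene models. When the null was widened to a 2-fold change, 11986 gene models (26.9%) passed, 6050 higher (13.6%) and 5936 lower (13.3%) in shoot.

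**Figure D1:**
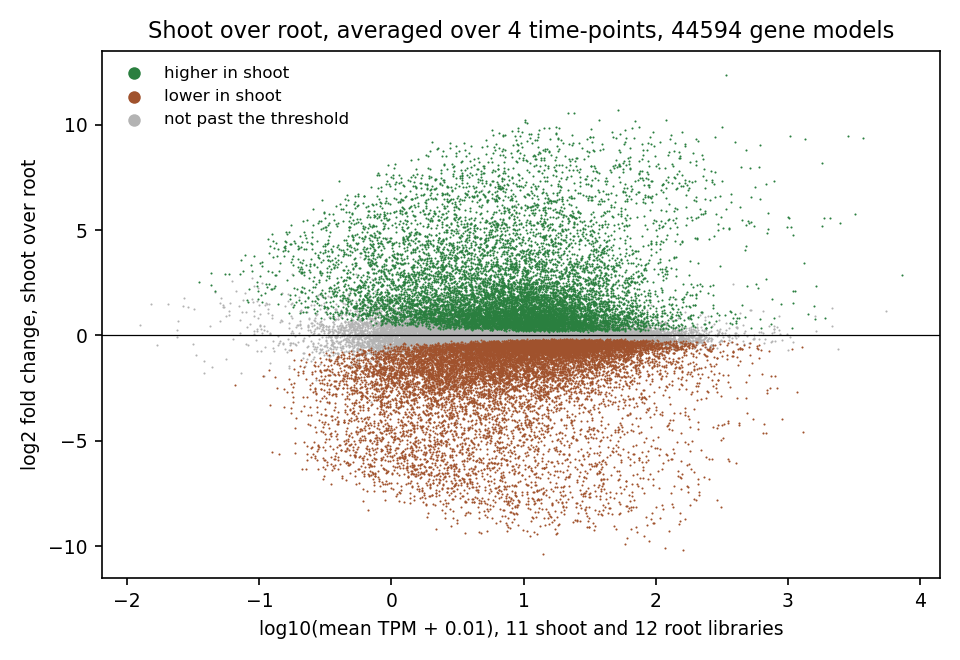
The vertical axis gives the log2 fold change of shoot over root averaged over time-points and the horizontal axis gives log10 of the mean TPM plus 0.01 without shoot ZT6 replicate 1, with each tested gene model as a point, coloured where its adjusted p was under 0.05. Called gene models lie above and below 0 at all levels, 11426 higher and 13799 lower in shoot, and changes of 4 or more on the log2 scale occur in both directions.

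Most uncalled gene models were measured well enough to bound the difference. The 95% interval of the log2 fold change lay wholly between -0.5 and 0.5 for 6583 gene models, of which 5957 did not pass the threshold, and between -1 and 1 for 20898, of which 14940 did not pass. For the rest of the 19369 uncalled gene models the interval reached a change of 2-fold or more, and their missing call does not show that shoot and root were alike.

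Calls were spread over the whole range of levels. The share called was 60.8% for gene models with a mean TPM under 1, 54.3% for those between 10 and 30 TPM and 59.2% for those of 100 TPM or more. The median size of a called change was largest at low levels, 2.60 on the log2 scale under 1 TPM, against 0.90 between 10 and 30 TPM, and it was 1.70 at 100 TPM or more. Standard errors were widest at low levels as well, with a median of 0.47 under 1 TPM and 0.17 between 10 and 30 TPM. A gene model of low mean level could pass the read filter through the tissue in which it was high. Where standard errors are wide, only large changes pass the threshold. The share called and the size of called changes at low levels are therefore partly set by the filter and the threshold.

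Direction went with the length of the gene model. Among called gene models, the share that was higher in shoot was 52.9% for models of up to 760 bases, 49.1% and 43.5% in the next classes, divided at 1152 bases, and 36.6% for models over 1710 bases, the 4 classes being of about equal size. The median length was 1101 bases for gene models higher in shoot and 1281 bases for those lower in shoot. The mean inverse length of the models counted also differed between the libraries, with 0.928 per kb in shoot and 0.754 per kb in root. Shoot ZT6 replicate 1 was at 1.887 per kb, and the medians were 0.856 per kb in shoot and 0.734 per kb in root. Without that library the difference did not pass (exact permutation within time-points, adjusted p = 0.0543). With the value of each library as a covariate the classes lay closer, with 49.6% higher in shoot in the shortest and 44.2% in the longest. The longest class lay below the shortest in each of the 37 alternative settings, most of which share the same libraries. How far direction goes with the make-up of the libraries rather than with model length was not tested.

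Separation of all single libraries was rarer than a call. On the TPM scale, 1066 gene models (2.39%) were higher in each of the 12 shoot libraries than in any root library, and 4562 (10.2%) were lower in each. Without shoot ZT6 replicate 1, the first count was 2825 (6.33%) and the second 4563 (10.2%). On CPM scaled by TMM factors, which make up for the few models that fill that library, the counts were 3677 (8.25%) and 3808 (8.54%) with all 24 libraries, and 4079 (9.15%) and 3951 (8.86%) without it.

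The difference between shoot and root was of like direction at the 4 time-points. Taken singly, ZT0 gave 15272 called gene models (34.2%), ZT6 15532 (34.8%), ZT12 15993 (35.9%) and ZT18 14262 (32%), in each case with 3 against 3 libraries. Those higher in shoot numbered, in order of time, 7445 (16.7%), 7864 (17.6%), 7407 (16.6%) and 6927 (15.5%). The counts lower in shoot were, in order of time, 7827 (17.6%), 7668 (17.2%), 8586 (19.3%) and 7335 (16.4%). The directions were thus close at ZT0, ZT6 and ZT18, while more gene models were lower than higher in shoot at ZT12. At ZT6 the count was 14469 without shoot ZT6 replicate 1. Of the gene models higher in shoot in the averaged contrast, 10533 (92.2%) had a higher fitted level in shoot at each time-point. Of those lower in shoot, 12623 (91.5%) had a lower one at each. The averaged contrast is the mean of the 4 single ones, so choosing gene models by it favours a like sign at each. Across the 44594 gene models, which are not independent replicates, the log2 fold changes of pairs of time-points had a Pearson's r between 0.873 and 0.910. Where a gene model was called at both of a pair of time-points, its direction was the same in 99.0% to 99.8% of cases.

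Fewer gene models passed the threshold at every time-point. All 4 time-points were called in the same direction for 4713 gene models higher in shoot (41.2%) and 4405 lower in shoot (31.9%), with median sizes of 3.18 and 3.23 on the log2 scale. The 1539 higher and 2551 lower gene models that were called at no single time-point had small averaged changes, with median sizes of 0.68 and 0.54. In 22 of the gene models higher and 47 of those lower in shoot, at least 1 time-point was called in the opposite direction.

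**Figure D2:**
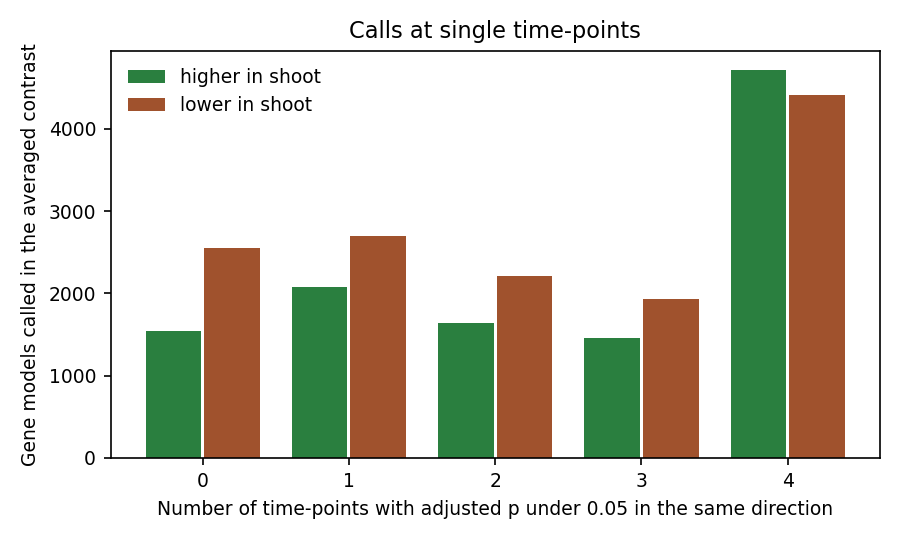
Bars give the number of gene models called in the averaged contrast (vertical axis) by the number of single time-points, 0 to 4, at which they were also called in the same direction (horizontal axis), for gene models higher and lower in shoot. The bars at 4 time-points are the tallest, with 4713 higher and 4405 lower.

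The gene models named for the largest fold changes were near absent from one tissue and strong in the other, which the rule that chose them favours. They were taken from those called at every time-point, with a mean TPM of at least 10 in the higher tissue and a summed expected count of at least 10 in the other, a rule that 2972 gene models higher and 2364 lower in shoot met. The 5 largest in each direction are given below with the lowest, median and highest of the 12 libraries. Where a tissue had no read at a time-point the fitted fold change depends on the small count added by the fit, so the ratio of the summed normalised counts of both tissues (the pooled ratio) is given as well.

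Nitab4.5_0000912g0250.1, a model of 900 bases, had 15.2, 661 and 1260 TPM in shoot libraries, against 0, 0.005 and 0.94 TPM in root libraries. Its lowest shoot value was that of shoot ZT6 replicate 1 and the next lowest was 233 TPM in shoot ZT18 replicate 2, so every shoot library lay above every root library. The summed expected count was 71601 in shoot and 22.97 in root. The averaged log2 fold change was 12.37 ± 0.62 (SE, edgeR adjusted p = 1.09e-16), the pooled log2 ratio was 11.76, and without shoot ZT6 replicate 1 the averaged value was 12.50. It was the largest fold change under the rule, and its ZT6, ZT12 and ZT18 values were 11.21, 11.54 and 10.99. At ZT0 no root library held a read of it.

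Nitab4.5_0015171g0010.1 (1531 bases) had 3.24, 97.2 and 181 TPM in shoot libraries, against 0, 0.07 and 0.47 TPM in root libraries, with shoot ZT6 replicate 1 again the lowest and no overlap between the tissues. It had an averaged log2 fold change of 10.68 ± 0.38 (adjusted p = 1.84e-19) and a pooled log2 ratio of 10.18. Within shoot the ZT12 libraries were the most even, at 181, 152 and 140 TPM, while the ZT18 libraries ran from 39.8 to 175 TPM.

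Nitab4.5_0003152g0030.1 (1495 bases) had 3.86, 40.9 and 101 TPM in shoot libraries and 0, 0 and 0.28 TPM in root libraries, of which 7 were at 0. The averaged log2 fold change was 10.55 ± 0.38 (adjusted p = 4.02e-18) and the pooled log2 ratio 9.67. Its shoot level was highest at ZT0, with 71.7, 71.8 and 101 TPM, and lower at ZT12, with 40.0, 29.3 and 38.4 TPM. It was the 1 model of these 10 whose shoot to root difference differed between time-points, with an adjusted p of 0.0088, and root was at 0 in all libraries of ZT0 and ZT6.

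Nitab4.5_0004097g0050.1 (681 bases) had the largest ratio of the 5 between its highest and its lowest shoot library. Its shoot libraries had 1.63, 193 and 697 TPM (lowest, median, highest), against 0, 0.125 and 1.64 TPM in root libraries. The lowest value belonged to shoot ZT0 replicate 3, whose companions at ZT0 had 697 and 595 TPM, and it fell inside the root range, so 11 of 12 shoot libraries lay above all root libraries. Its averaged log2 fold change was 10.23 ± 0.81 (adjusted p = 2.43e-13).

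Nitab4.5_0003157g0020.1 (1100 bases) varied most with the time-point in shoot. It had 410, 412 and 402 TPM in the shoot ZT12 libraries, against 9.41, 10.6 and 17.4 TPM at ZT0, while root libraries were at 0 to 0.29 TPM throughout. Averaged over time-points its log2 fold change was 10.16 ± 0.44 (adjusted p = 3.07e-18), and the test of the difference between time-points did not pass (adjusted p = 0.691), with 6 of 12 root libraries at 0.

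Among those lower in shoot, Nitab4.5_0003151g0060.1 (996 bases) had 0, 0.09 and 2.31 TPM in shoot libraries, against 209, 316 and 467 TPM in root libraries. The averaged log2 fold change was -10.19 ± 0.61 (adjusted p = 1.51e-17) and the pooled log2 ratio -10.38. Its highest shoot value was in shoot ZT18 replicate 2, and 5 shoot libraries held no read of it.

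Nitab4.5_0006605g0040.1 (717 bases) had 0, 0 and 4.41 TPM in shoot libraries and 154, 213 and 351 TPM in root libraries, with an averaged log2 fold change of -10.09 ± 0.72 (adjusted p = 3.2e-15) and a pooled log2 ratio of -9.57. Nitab4.5_0000314g0060.1 (897 bases) had 0, 0 and 3.72 TPM in shoot and 63.9, 109 and 159 TPM in root, with an averaged log2 fold change of -9.92 ± 0.74 (adjusted p = 1.8e-13) and a pooled log2 ratio of -9.06. In both models 7 shoot libraries were at 0 and the groups did not overlap.

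Nitab4.5_0003436g0010.1 (1074 bases) had 0, 0.09 and 1.83 TPM in shoot libraries, against 73.4, 168 and 331 TPM in root libraries, and an averaged log2 fold change of -9.78 ± 0.67 (adjusted p = 2.59e-16). Nitab4.5_0002618g0010.1 (715 bases) had 0, 0.1 and 1.77 TPM in shoot libraries and 21.3, 96.4 and 541 TPM in root libraries, and an averaged log2 fold change of -9.53 ± 0.64 (adjusted p = 1.89e-17). Its root level was uneven within a time-point, with 541, 175 and 101 TPM at ZT12.

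In all 5 models lower in shoot, the highest shoot value was that of shoot ZT18 replicate 2. Without that library the averaged log2 fold changes were -11.19 for Nitab4.5_0003151g0060.1, -11.23 for Nitab4.5_0006605g0040.1, -11.08 for Nitab4.5_0000314g0060.1, -10.69 for Nitab4.5_0003436g0010.1 and -10.82 for Nitab4.5_0002618g0010.1, each further from 0. As the library left out was the highest shoot library of each model, that direction was set in advance. With so few reads left at shoot ZT18, the sizes also depend on the small count added by the fit. A highest shoot value in shoot ZT18 replicate 2 was not limited to these 5. Of 1951 gene models that were lower in shoot by at least 4 on the log2 scale and had a read in some shoot library, shoot ZT18 replicate 2 was the highest shoot library for 943 (48.3%), with a median level of 5.77% of the root mean, while the other 11 shoot libraries had medians of 0 to 1.29%. Among 2018 such gene models higher in shoot, root ZT6 replicate 1 was the highest root library for 710 (35.2%), with a median of 1.78% of the shoot mean. There the other 11 root libraries had medians of 0.341% to 1.43%, so root ZT6 replicate 1 stood less far apart, and root ZT12 replicate 2, at 1.43%, was the highest for 238 (11.8%). What these libraries hold beside their labelled tissue was not tested. Shoot ZT18 replicate 2 and root ZT6 replicate 1 are among the 5 libraries of lowest mapped share in the study's quality table. They also had the lowest total expected counts of their tissue, 4125090 and 4787850. In a shallow library a single read weighs more, which favours it in a tally of the highest library. Shoot ZT6 replicate 1, with a total of 4438627, was the highest shoot library for 187 (9.58%). The part played by depth was not tested.

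**Figure D3:**
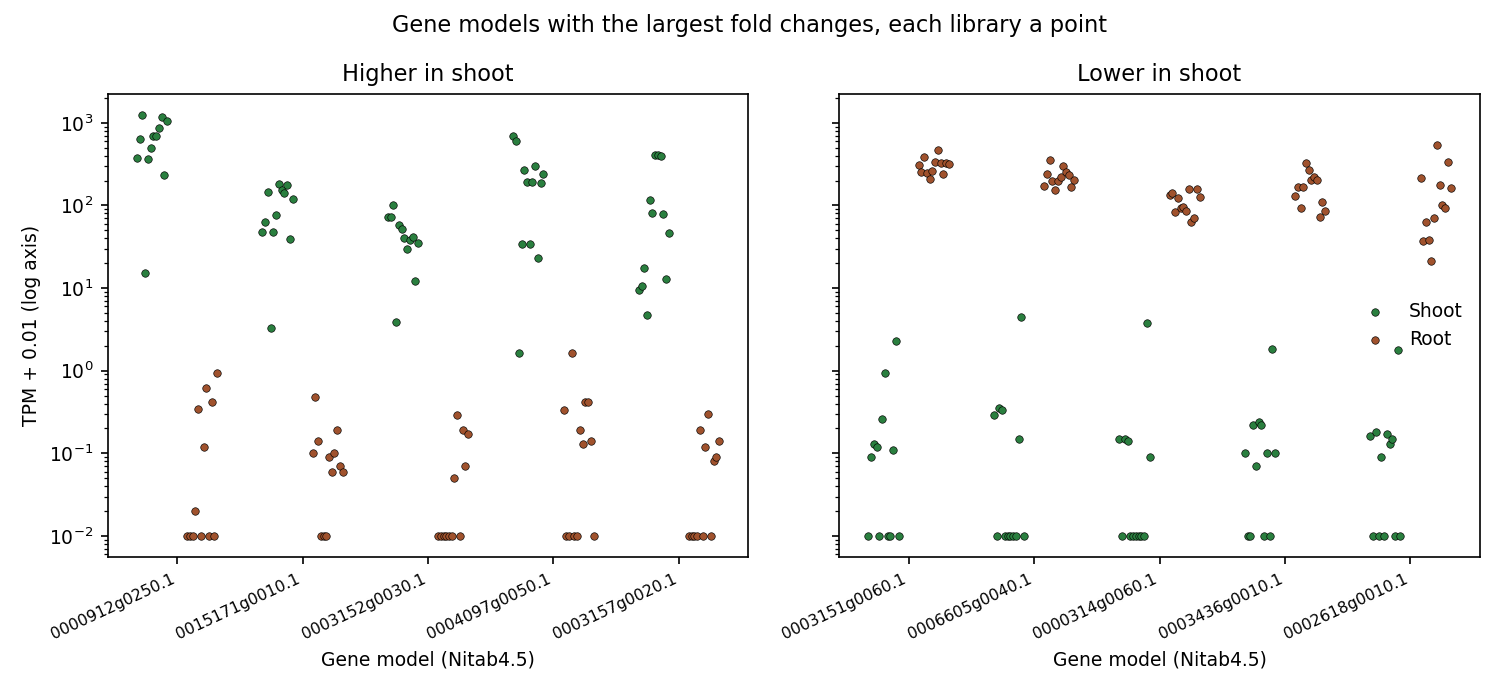
Each point is the TPM plus 0.01 of a library (log axis) for the 5 gene models with the largest fold changes higher in shoot (left panel) and lower in shoot (right panel), shoot left of root for each model and libraries in order of time-point and replicate. Points on the lowest line are libraries at 0 TPM, and in the right panel the highest shoot point of each model, between 1.77 and 4.41 TPM, is shoot ZT18 replicate 2.

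Gene models with no read at all in one tissue were mostly weak in the other. Of the 69500, 2337 had an expected count of 0 in all 12 root libraries and at least some reads in shoot, and 2719 had 0 in all 12 shoot libraries and some in root. Their summed expected count was under 12 in 88.4% and 83.6% of cases. A mean of at least 10 TPM was reached by 13 of those seen in shoot alone and 11 of those seen in root alone.

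The strongest gene model at 0 in root was Nitab4.5_0003211g0020.1 (495 bases), with 1.18, 38.5 and 104 TPM in shoot libraries (lowest, median, highest) and a summed expected count of 2567, which makes it at least 953-fold higher in shoot when root is set to 3 reads over its 12 libraries together. Nitab4.5_0000664g0130.1 (204 bases) followed with 0.62, 24.02 and 45.5 TPM in shoot, at least 202-fold higher. For both, the lowest shoot value was that of shoot ZT6 replicate 1. At 0 in shoot, Nitab4.5_0001071g0020.1 (207 bases) had 14.8, 31.4 and 49.4 TPM in root libraries, at least 229-fold more than shoot set to 3 reads in all. Nitab4.5_0002863g0030.1 (466 bases) had 0.62, 13.5 and 79.9 TPM in root libraries, at least 428-fold more, and its root libraries were less even. These bounds cover counting error only.

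The most abundant gene models among those higher in shoot owed their rank to few libraries. By mean TPM over the 12 shoot libraries, among 10533 gene models of a like sign at each time-point, the first was Nitab4.5_0003644g0060.1 (252 bases), with 106910 TPM in shoot ZT6 replicate 1 and 53822 TPM in shoot ZT18 replicate 2 but a shoot median of 117 TPM, against a root median of 30.9 TPM and a root maximum of 10385 TPM in root ZT6 replicate 1. Its averaged log2 fold change was 5.74 ± 1.35 (adjusted p = 0.000582), and without both shoot libraries it was 1.77 (adjusted p = 0.104).

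Nitab4.5_0007400g0050.1 (531 bases) and Nitab4.5_0001628g0020.1 (177 bases) had the same shape. Nitab4.5_0007400g0050.1 had 69292 and 33309 TPM in these libraries and medians of 102 TPM in shoot and 33.5 TPM in root, with an averaged log2 fold change of 5.56 ± 1.28 (adjusted p = 0.00048) that was 1.85 (adjusted p = 0.0687) without them. Nitab4.5_0001628g0020.1 had 60683 and 39874 TPM there and medians of 68.2 TPM in shoot and 27.3 TPM in root, with an averaged log2 fold change of 5.31 ± 1.31 (adjusted p = 0.000953) that was 1.498 (adjusted p = 0.181) without them. The call of all 3 models was thus lost without the 2 libraries and kept when either was left out alone. DESeq2 gave none of the 3 an adjusted p, and with limma the call of Nitab4.5_0001628g0020.1 was lost, at 2.45 on the log2(TPM + 1) scale (adjusted p = 0.0781) and 2.52 on the log2(TPM + 0.1) scale (adjusted p = 0.0716).

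Nitab4.5_0000037g0340.1 (661 bases) was abundant across shoot. Its shoot libraries had 522.4, 7923 and 42197 TPM (lowest, median, highest), against 455, 1498 and 4210 TPM in root libraries, and 7 of 12 shoot libraries lay above all root libraries. The averaged log2 fold change was 2.88 ± 0.54 (adjusted p = 3.53e-05) and it was 2.96 without shoot ZT6 replicate 1. At single time-points it was called at ZT0, ZT6 and ZT18, with log2 fold changes of 2.71 (adjusted p = 0.0496, just inside the threshold), 2.76 (0.0455) and 3.96 (0.00714), and had 2.10 at ZT12 (adjusted p = 0.125).

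The most abundant gene models lower in shoot were strong in every root library. Nitab4.5_0006255g0010.1 (614 bases) had 10.6, 76.0 and 194 TPM in shoot libraries, against 1126, 2186 and 4745 TPM in root libraries. Its averaged log2 fold change was -4.58 ± 0.31 (adjusted p = 2.72e-13), with -4.32, -3.95, -5.13 and -4.91 at ZT0, ZT6, ZT12 and ZT18, all called.

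Nitab4.5_0001049g0180.1 (1764 bases) had 33.7, 230 and 432 TPM in shoot libraries and 622, 1907 and 4276 TPM in root libraries, with an averaged log2 fold change of -2.69 ± 0.42 (adjusted p = 2.9e-06). Nitab4.5_0000180g0140.1 (1113 bases) had 7.73, 76.7 and 243 TPM in shoot and 715, 1400 and 3325 TPM in root, with -3.97 ± 0.33 (adjusted p = 1.7e-11). For these 3 models the libraries of shoot and root did not overlap.

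Nitab4.5_0009884g0010.1 (834 bases), the fourth by root level, differed little. It had 123, 760 and 2256 TPM in shoot libraries and 849, 1691 and 2373 TPM in root libraries, and the tissues overlapped. The averaged log2 fold change was -0.57 ± 0.21 (adjusted p = 0.02), it was called at no single time-point, and the call was lost in 5 alternatives whose values stayed between -0.60 and -0.47. The adjusted p was 0.0625 with the shoot and root libraries alone in the fit, 0.0926 with the length covariate, 0.061 without 5 libraries of low mapped share, 0.0585 without shoot ZT0 replicate 1 and 0.0512 without root ZT12 replicate 3.

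Called gene models next to each other on a scaffold more often had the same direction than those next to each other in the list alone. The number before the letter g in an identifier was read as that of the scaffold and the number after it as the order on it, as is usual for this assembly, although the sources used here do not state it. Among neighbours on 1 scaffold that were both called, 4795 of 8552 pairs (56.1%) had the same direction. For pairs of consecutive identifiers on different scaffolds it was 857 of 1746 (49.1%), a description with no test. Unbroken runs of 5 or more called neighbours of 1 direction numbered 5 of 9505 runs higher and 22 of 10925 runs lower in shoot, single gene models counted as runs. More gene models were called lower than higher, and the 2 counts were not tested against each other.

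The longest run held 7 gene models lower in shoot on scaffold 314, from Nitab4.5_0000314g0010.1 to Nitab4.5_0000314g0070.1, which includes a model given above. Their mean level was 0.103 to 0.62 TPM in shoot and 24.99 to 111 TPM in root, and their log2 fold changes were between -9.92 and -7.27. Nitab4.5_0000314g0070.1 had 0, 0.095 and 1.6 TPM in shoot libraries, against 50.5, 86.6 and 133 TPM in root libraries, with a log2 fold change of -8.19. Nitab4.5_0000314g0040.1, the weakest in root, had 0, 0.025 and 0.49 TPM in shoot libraries and 10.96, 25.3 and 41.7 TPM in root libraries, with a log2 fold change of -8.21. All 7 were called at each time-point, and 3 of them have a length of 897 bases, so reads may be shared between them.

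The longest run higher in shoot held 6 gene models on scaffold 4008, from Nitab4.5_0004008g0010.1 to Nitab4.5_0004008g0060.1, and was far less even. Nitab4.5_0004008g0030.1 had 0.18, 19.0 and 152 TPM in shoot libraries, against 0, 0 and 3.55 TPM in root libraries, with a log2 fold change of 8.30. Nitab4.5_0004008g0060.1 had 2.05, 22.3 and 28.7 TPM in shoot libraries and 6.97, 10.9 and 14.8 TPM in root libraries, with a log2 fold change of 1.17, and its tissues overlapped.

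A test of whether the shoot to root difference itself differed between time-points found few gene models. It was passed by 899 of 44594 (2.02%), of which 707 were also called in the averaged contrast. An unadjusted p under 0.05 was seen for 4789, and DESeq2 called 1611. Without shoot ZT6 replicate 1 the test was passed by 816, and by 805 when shoot ZT18 replicate 2 was left out as well. With any 1 library left out the count was 696 to 934. Among the 899, 379 kept their direction at all 4 time-points and 520 had a fitted direction that turned. The log2 fold change of these 899 spanned a median of 2.62 between the highest and lowest time-point, against 0.857 for all gene models tested. Of the 25225 gene models called in the averaged contrast, 97.2% did not pass this test, which does not show that their difference was constant.

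The difference was most often highest at ZT6, for 347 of the 899, and most often lowest at ZT0, for 351. These counts were not set against those of all tested gene models. They were not repeated without shoot ZT6 replicate 1, so they only describe the 899. A call in both directions, higher in shoot at some time-point and lower at another, was found for 206 of the 899. The 4 of these with the largest opposite changes are given with every library, as replicates 1, 2 and 3.

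Nitab4.5_0005359g0030.1 (2299 bases) had the firmest turn. At ZT0 it had 316, 273 and 526 TPM in shoot, against 17.5, 16.5 and 37.2 TPM in root, with a log2 fold change of 4.04 ± 0.31 (adjusted p = 8.56e-11). By ZT12 shoot had 0.74, 0.44 and 0.62 TPM and root 11.2, 8.83 and 12.4 TPM, with a log2 fold change of -4.13 ± 0.32 (adjusted p = 9.43e-11). Shoot thus lay above all root libraries at ZT0 and below all of them at ZT12. At ZT6 shoot had 2.05, 11.7 and 19.1 TPM and root 22.4, 27.2 and 26.1 TPM (log2 fold change -0.55, adjusted p = 0.128), and at ZT18 shoot had 8.73, 8.24 and 17.0 TPM and root 9.21, 5.52 and 5.78 TPM (log2 fold change 1.22, adjusted p = 0.00112). The averaged contrast gave 0.14 (adjusted p = 0.414), and the test of the difference between time-points an adjusted p of 2.89e-11.

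Nitab4.5_0015407g0010.1 (1422 bases) turned the other way. At ZT0 it had 0.07, 0.17 and 0.09 TPM in shoot and 1.39, 3.9 and 0.07 TPM in root, with a log2 fold change of -3.89 ± 1.07 (adjusted p = 0.00469). At ZT12 it had 28.6, 8.81 and 10.2 TPM in shoot and 0.88, 0.18 and 1.54 TPM in root, with 4.20 ± 0.94 (adjusted p = 0.000622). The shoot and root libraries were separate at ZT12 and overlapped at ZT0, where the value was -2.76 without root ZT0 replicate 2 (adjusted p = 0.0566). At ZT6 it had 0.08, 1.27 and 1.6 TPM in shoot and 0.19, 4.78 and 3.16 TPM in root (-0.96, adjusted p = 0.442). At ZT18 it had 0.88, 1.63 and 0.72 TPM in shoot and 0.19, 1.72 and 0.33 TPM in root (0.91, adjusted p = 0.525), and neither of these time-points was called.

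The other two had lower levels. Nitab4.5_0002257g0070.1 (447 bases) had 0.69, 0.37 and 9.01 TPM in shoot and 0.17, 0 and 0.24 TPM in root at ZT0, with a log2 fold change of 4.21 ± 1.09 (adjusted p = 0.00232). Without shoot ZT0 replicate 3 that value was 1.75 (adjusted p = 0.267). At ZT6 it had 0, 1.72 and 6.97 TPM in shoot and 0, 0.88 and 0 TPM in root (3.59, adjusted p = 0.0133), and at ZT12 0.26, 0.4 and 0 TPM in shoot and 0.28, 0.58 and 0.92 TPM in root (-1.15, adjusted p = 0.505). At ZT18 it had 0 TPM in all 3 shoot libraries, against 0.32, 1.78 and 0.73 TPM in root, so the tissues were separate. The fitted log2 fold change of -5.12 (adjusted p = 0.0242) depends there on the small count added by the fit. It was -5.12 without shoot ZT18 replicate 1, -5.08 without shoot ZT18 replicate 3 and -4.21 without root ZT18 replicate 2, and with these smaller groups the adjusted p was 0.0959, 0.1 and 0.113.

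Nitab4.5_0000024g0190.1 (1132 bases) had 0, 1.41 and 1.11 TPM in shoot at ZT6 and 0.48, 58.1 and 10.3 TPM in root, with a log2 fold change of -4.27 ± 1.203 (adjusted p = 0.00583) that was -2.18 without root ZT6 replicate 2 (adjusted p = 0.155). At ZT0 it had 1.85, 1.97 and 5.91 TPM in shoot and 7.17, 12.4 and 0 TPM in root (-1.07, adjusted p = 0.479), and at ZT12 0.1, 0.3 and 0.17 TPM in shoot and 0.05, 0.44 and 1.87 TPM in root (-1.72, adjusted p = 0.347). The libraries overlapped at each of these time-points. At ZT18 it had 5.46, 1.1 and 2.15 TPM in shoot and 0.24, 0.08 and 0.35 TPM in root, with no overlap and a log2 fold change of 4.01 ± 1.26 (adjusted p = 0.0142). It was 3.35 without shoot ZT18 replicate 1 (adjusted p = 0.07) and 3.69 without root ZT18 replicate 2 (adjusted p = 0.0618).

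**Figure D4:**
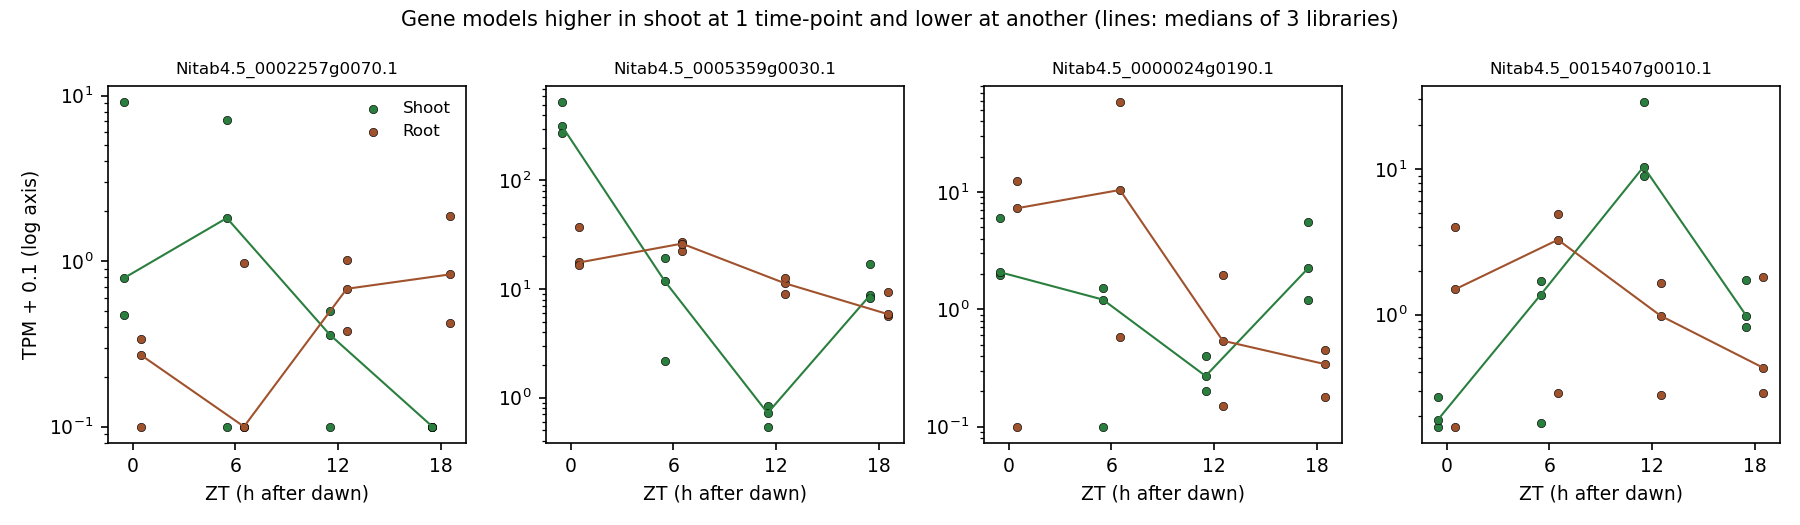
TPM plus 0.1 on a log axis is plotted against time-point for the 4 gene models, shoot left of root at each time-point, with a point for each library and a line through the medians of 3. For Nitab4.5_0005359g0030.1 the shoot points at ZT0 (273 to 526 TPM) lie above those of root (16.5 to 37.2 TPM), and at ZT12 (0.44 to 0.74 TPM) below them (8.83 to 12.4 TPM).

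Taken over whole libraries, shoot had fewer gene models above 1 TPM and a larger share of TPM in the leading ones. The number with a TPM of at least 1 was 36442 ± 5004 in shoot and 39087 ± 704 in root (SD, n = 12 each), a difference of -2645 (exact permutation test within time-points, two-sided, p = 0.000788, adjusted over 4 values p = 0.0026). Without shoot ZT6 replicate 1 the shoot mean was 37867 ± 861 and the difference, taken as the mean of the differences within time-points, -1209 (adjusted exact p = 0.0057). The ranges were 20769 to 38823 in shoot and 37675 to 40138 in root, and they overlapped.

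The 10 leading gene models of a library held 11.3% ± 12.9 of the TPM in shoot and 3.10% ± 2.00 in root, and the 100 leading ones 24.7% ± 23.3 in shoot and 11.2% ± 3.48 in root (SD, n = 12 each, adjusted exact permutation p = 0.0026 for each). Without shoot ZT6 replicate 1 the shoot means were 8.06% and 18.9% (adjusted exact p = 0.00778 for each). The medians, which a single library moves little, were 5.83% in shoot and 2.39% in root for the 10 leading gene models. The mean inverse length of the models counted was 0.928 ± 0.324 per kb in shoot and 0.754 ± 0.0852 per kb in root (adjusted exact permutation p = 0.0291), and that call was lost without shoot ZT6 replicate 1 (p = 0.0543).

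**Figure D5:**
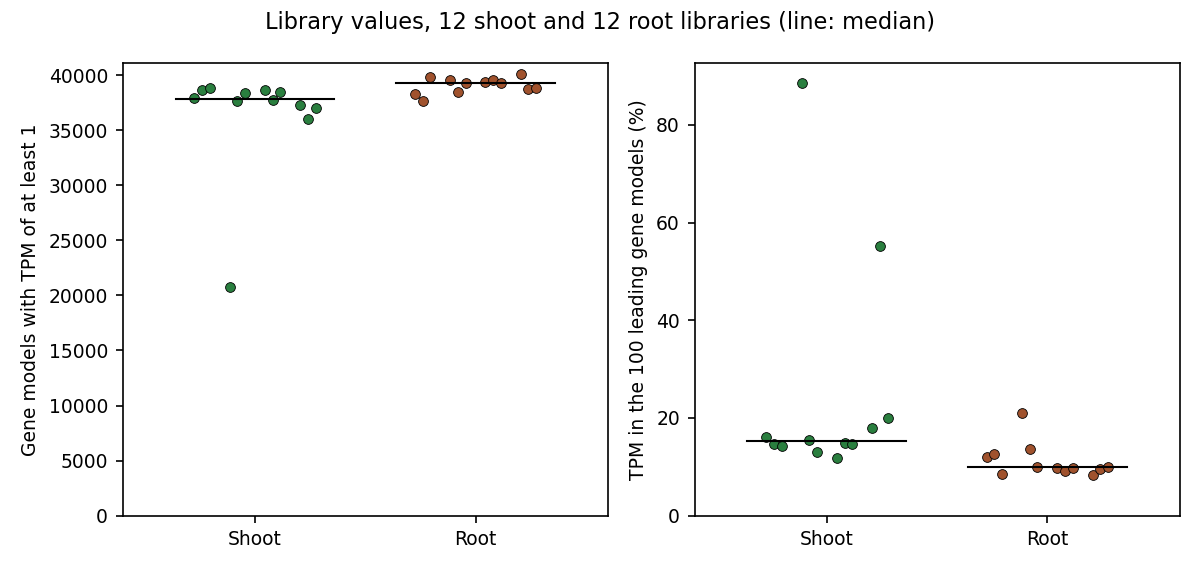
Each point is a library, in order of time-point and replicate within shoot (left) and root (right), with the number of gene models of at least 1 TPM in the left panel, the percentage of TPM in the 100 leading gene models in the right panel, and lines at the medians. Shoot ZT6 replicate 1 lies at 20769 gene models and 88.7%, and the other shoot libraries lie between 35993 and 38823 gene models.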

How the data were processed

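RNA was extracted from whole shoot, root and shoot apex, and random primed libraries were sequenced as single reads of 100 bases. The authors trimmed the reads and aligned them against gene models predicted on Nitab4.5, and the submitters' processing notes name CASAVA 1.9.4, Bowtie 1.1.0 and RSEM 1.2.7. The authors deposited expected counts (RSEM's estimated counts, not normalised) and TPM, scaled by model length and depth.

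Groups were taken from the labels. Expected counts were rounded, filtered by filterByExpr (minimum count 10, minimum total count 15), normalised by TMM and fitted over all 36 libraries in 12 groups of tissue and time-point with edgeR 4.0.16 (glmQLFit, glmQLFTest, and glmTreat for changes beyond 2-fold) in R 4.3.3. P-values were adjusted by Benjamini-Hochberg over 44594 gene models, with a threshold of 0.05, and tests were two-sided. Standard errors are the size of the log2 fold change divided by the square root of F. Library values were compared by exact permutation within time-points (160000 arrangements, Python 3.11.15, NumPy 2.4.6). Alternatives used DESeq2 1.42.0, limma 3.58.1 on log2(TPM + 1) and log2(TPM + 0.1), other filters, libraries and covariates.

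Gene models were named by rule: the largest fold changes (5 each way), the highest TPM (4 each way), those at 0 in 1 tissue (2 each way) and those turning with time (4). Comparisons, lists and rules were chosen with earlier results of these data known. A table of the whole series, which repeats the expected counts, was not used. Of 276 shoot and root library pairs, 0 held identical counts. The 95% intervals of fold changes include the spread between libraries, and the bounds for gene models at 0 cover counting error only.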

Additional observations from a re-analysis of the deposited data

Results flagged for a closer look

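The shoot to root difference itself differed between time-points for 899 gene models by the edgeR test with 3 degrees of freedom (adjusted p under 0.05). Among the gene models described above by name, 5 passed it. The adjusted p was 2.89e-11 for Nitab4.5_0005359g0030.1, 0.00443 for Nitab4.5_0015407g0010.1, 0.00806 for Nitab4.5_0002257g0070.1 and 0.0347 for Nitab4.5_0000024g0190.1, all with calls in opposite directions at different time-points. It was 0.0088 for Nitab4.5_0003152g0030.1, which was higher in shoot at each time-point, with root at 0 TPM in all ZT0 and ZT6 libraries.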

How the results depend on the processing

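The count of called gene models was 22336 to 26588 over the 37 alternatives and 24407 to 25868 with 1 library left out. Limits were a depth of 3 libraries a group, reads shared between near-identical models and few libraries of unusual make-up. The mean inverse length of the models counted also varied within groups. At ZT12 it was 0.690, 0.858 and 0.845 per kb in shoot replicates 1, 2 and 3. Root replicates 1, 2 and 3 had 0.828, 0.815 and 0.670 per kb there. Only the fit with the length covariate takes that value into account. The cause of the shifts below was not tested. With limma on log2(TPM + 1), 7175 gene models were higher in shoot, 10059 were called at ZT0, 6853 beyond 2-fold and 251 in the test between time-points. With log2(TPM + 0.1) the values were 6814 higher in shoot (29.2% of calls), 9140 at ZT0, 10298 at ZT12 and 98 between time-points. DESeq2 called 1611 between time-points. Without the 5 libraries of lowest mapped share in the study's quality table, 10228 were called at ZT6, where 1 root library was left, assumed to vary like the other groups, and 487 between time-points, and 51.9% of calls were higher in shoot. Of these 5, root ZT18 replicate 2 has a deposited total of 13332241, above the root median, so its low share in that table is unexplained. That share was 51.0% with at least 10 counts in 12 libraries. The mean inverse length per kb, as a mean of differences within time-points, differed by 0.0847 without those 5 libraries (adjusted exact permutation p = 0.0739) and by 0.0812 without shoot ZT6 replicate 1 (p = 0.0543), and neither passed.

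The labels do not say whether a replicate number marks a shared plant or batch, and no pairing was assumed. With 3 libraries a group, the correlations below cannot decide it. Over 12 same-numbered shoot and root pairs the correlation of deviations was -0.536 to 0.550, 6 were over 0.1, and 5 shoot libraries correlated best with their own number. Pairs of unlike number ran from -0.656 (shoot ZT0 replicate 3 with root ZT0 replicate 1) to 0.673 (shoot ZT12 replicate 1 with root ZT12 replicate 3). Whether these correlations go with the mean inverse length of the libraries was not tested. With a replicate block 25098 gene models were called, and 24352 with the block within time-points. The replicate block gave Nitab4.5_0000037g0340.1 at ZT0 a log2 fold change of 2.64 (adjusted p = 0.0639). The block within time-points gave an averaged log2 fold change of 3.86 for Nitab4.5_0003644g0060.1 (adjusted p = 0.0954), 3.74 for Nitab4.5_0007400g0050.1 (0.0706) and 3.52 for Nitab4.5_0001628g0020.1 (0.134), and -4.70 for Nitab4.5_0002257g0070.1 at ZT18 (0.0687), none called. Of 1102 values of the 30 named fold changes under alternatives, 1070 kept direction and call, 32 lost the call and 0 were reversed. DESeq2 gave 3 further ones no adjusted p.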

Other observations

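The shoot apex, not compared above, had its own level of the gene models with the largest fold changes, given here as values with no test. Nitab4.5_0000912g0250.1 had a median of 661 TPM in shoot and 973 TPM in shoot apex. Nitab4.5_0015171g0010.1 had 97.2 TPM in shoot and 63.5 TPM in shoot apex, Nitab4.5_0003152g0030.1 had 40.9 TPM in shoot and 39.3 TPM in shoot apex, and Nitab4.5_0003157g0020.1 had 62.8 TPM in shoot and 56.2 TPM in shoot apex. These 4 were thus abundant in both. Nitab4.5_0004097g0050.1 had a median of 193 TPM in shoot (1.63 to 697 TPM) and 3.73 TPM in shoot apex (1.83 to 19.3 TPM). The 5 gene models with the largest changes lower in shoot reached at most 4.41 TPM in shoot libraries and 0.3 TPM in shoot apex libraries.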
